A study of Homo sapiens with 9 samples.

Results

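Compound Kushen Injection (CKI) is a herbal injection made from the roots of Kushen and the rhizomes of Baituling, and the comparison here set the combined injection against Baituling injection alone. The question was which transcripts differed when Kushen was present beside Baituling. MDA-MB-231, an established triple-negative breast adenocarcinoma line, was treated for 48 h in DMEM with 10% fetal bovine serum. The 3 CKI libraries came from cells given CKI at 2.0 mg/mL, a 1 in 10 dilution, and the 3 Baituling libraries from cells given Baituling injection at the matching dilution. By the labels, the treatments differed in the Kushen component. The series' design text gives 3 biological replicates a group. The 6 libraries were 6 of the 9 in the series, and the other 3, from cells given Kushen injection alone, are shown beside them. Untreated cells were not analysed here, so "higher" and "lower" are relative to Baituling and not to resting cells.

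All 24344 Ensembl genes of the count table were considered, and 14195 passed the filter on low counts and were tested. The 3 CKI libraries held 22830700 to 23556823 counts and the 3 Baituling libraries held 20144628 to 23367960. Levels are given as CPM (counts scaled to 1000000 a library) after TMM scaling, which sets the libraries to a common centre. A gene passed the test at an adjusted p under 0.05 (edgeR quasi-likelihood test, Benjamini-Hochberg), and it was called when the log2 fold change also exceeded 1 in size. CPM are shares of a library, and in bulk cells fewer cells of a kind and less RNA per cell cannot be told apart.

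The cells carried the markers of the line. All 8 markers fixed for it passed the filter. VIM, CD44, AXL, MSN, CAV1, ZEB1 and EGFR were at 60 CPM or more in each of the 9 libraries, and SPARC was at a lower level. Of 10 luminal breast markers, ESR1 and PGR, the estrogen and progesterone receptors, reached at most 3 and 4 counts in any library. The other 8 passed the filter and summed to 746 to 806.5 CPM in CKI and 1681 to 1832 CPM in Baituling. Of 10 liver markers, 2 passed the filter and the others, ALB among them, had at most 7 counts in any library. Of 8 leukocyte markers 2 passed it, and the list summed to 7.53 to 8.70 CPM in CKI and 9.66 to 11.8 CPM in Baituling. Squamous markers stood apart, and their genes were looked up after this was seen. KRT5, a keratin of basal epithelium, had 0 counts in Baituling library 1 and in all CKI and Kushen libraries, but 93 counts in Baituling library 2 and 124 in library 3. KRT6A followed the same pattern with 52 and 64 counts, KRT6B with 31 and 35, and KRT14 with 50 and 40, the last against at most 3 counts elsewhere. Of the 10 squamous markers, 4 passed the filter, and these 4, SFN foremost, summed to 222 to 243 CPM in CKI and 475 to 528 CPM in Baituling. Of these 4, TP63 had 15 counts in Baituling library 1, 30 in library 2 and 31 in library 3. SFN, COL17A1 and PERP did not have more counts in libraries 2 and 3 than in library 1. In all, 12 genes had at least 10 counts in Baituling libraries 2 and 3 and at most 3 in the other 7. None of the 12 passed the filter, and by this choice none could, because it needs about 10 counts in at least 3 libraries. The fit was repeated with Baituling library 1 alone, which also leaves 1 library in that group, so the calls lost cannot be put down to these reads. That fit called 2813 genes, and 2351 of the 2715 genes called with all libraries (86.6%) were called again in the same direction. None of the 2715 changed direction. The part of the squamous reads in other differences was not tested.

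Kushen alkaloids such as matrine and oxymatrine are the best known constituents of CKI. Cells meet foreign small molecules with receptors and sensors that raise detoxifying enzymes. The aryl hydrocarbon receptor (AhR) is a ligand-activated transcription factor that drives cytochrome P450 genes of the CYP1 family, and NRF2 is a transcription factor freed from its inhibitor KEAP1 by electrophilic or oxidative stress. Proliferating cells in turn express replication genes in S phase and mitotic genes in G2 and M phase, and growth also requires ribosomal proteins.

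Between CKI and Baituling, 10802 genes (76.1% of those tested) passed the test and 2715 (19.1%) were called. Of these, 1592 (11.2% of those tested) were higher in CKI and 1123 (7.91%) were lower. The libraries of the 2 groups did not overlap for 78.3% of the genes tested. The largest differences were mostly rises, with 481 genes higher against 152 lower beyond a log2 fold change of 2, and 47 against 3 beyond 4. Scaling to library totals in place of TMM raised the all-gene median by 0.287 on the log2 scale, from 0.03 to 0.32, and the share of calls that were higher from 58.6% to 80.0%. Requiring at least 10 counts in every library lowered that share to 48.9%. Each direction below is therefore relative to the centre that TMM set. Counts of list members called are to be read beside the shares of all genes, 11.2% higher and 7.91% lower. Counts of members that passed the test are to be read beside 39.1% of all genes upward and 37.0% downward.

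**Figure D1:**
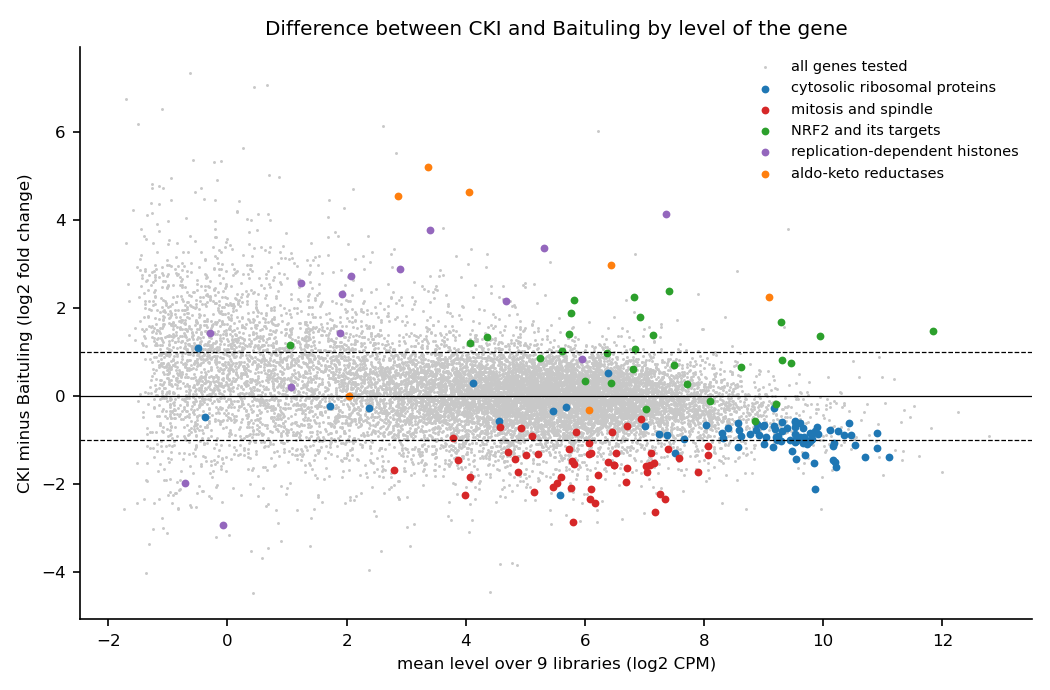
Log2 fold change of CKI against Baituling (vertical axis) for each of the 14195 genes tested against its mean level over the 9 libraries (log2 CPM, horizontal axis); dashed lines mark a log2 fold change of 1 in either direction. Mitotic genes and most ribosomal protein genes lie below 0, and most NRF2 targets, aldo-keto reductases and histone genes lie above it.

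Among the genes that passed the filter, the direction of the difference followed the level of the gene. Below a mean level of 1 log2 CPM, 38.3% of 2129 genes were called higher in CKI and 8.27% lower. At 9 log2 CPM and above, 2.41% of 249 genes were called higher and 21.3% lower, with a median log2 fold change of -0.61. Among the genes called higher, 122 had at most 3 counts in every Baituling library, so their folds rest on few reads. Only 2 genes called lower had at most 3 counts in every CKI library. The filter needs about 10 counts in only 3 libraries, so a gene of low level can enter through the group where it is high. With at least 10 counts in every library, 885 genes were called higher and 923 lower. The trend with level was not examined under that filter.

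Long non-coding RNA genes were called higher more often than protein-coding genes. Of 775 long non-coding RNA genes tested, 300 (38.7%) were higher in CKI and 38 (4.9%) lower, with a median log2 fold change of 0.74. Below 1 log2 CPM lay 446 of the 775 genes and 211 of the 300 called higher. Genes of such a level can pass the filter through the group where they are high. These shares were not examined under a filter on every library. The 13157 protein-coding genes had 9.32% higher and 8.16% lower and a median of 0.0048. At 3 to 5 log2 CPM, where the levels were alike, 19.3% of 88 long non-coding RNA genes and 6.22% of 3503 protein-coding genes were higher. Long non-coding RNAs took 0.643% to 0.755% of the counts of the CKI libraries and 0.46% to 0.471% of those of the Baituling libraries.

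**Figure D2:**
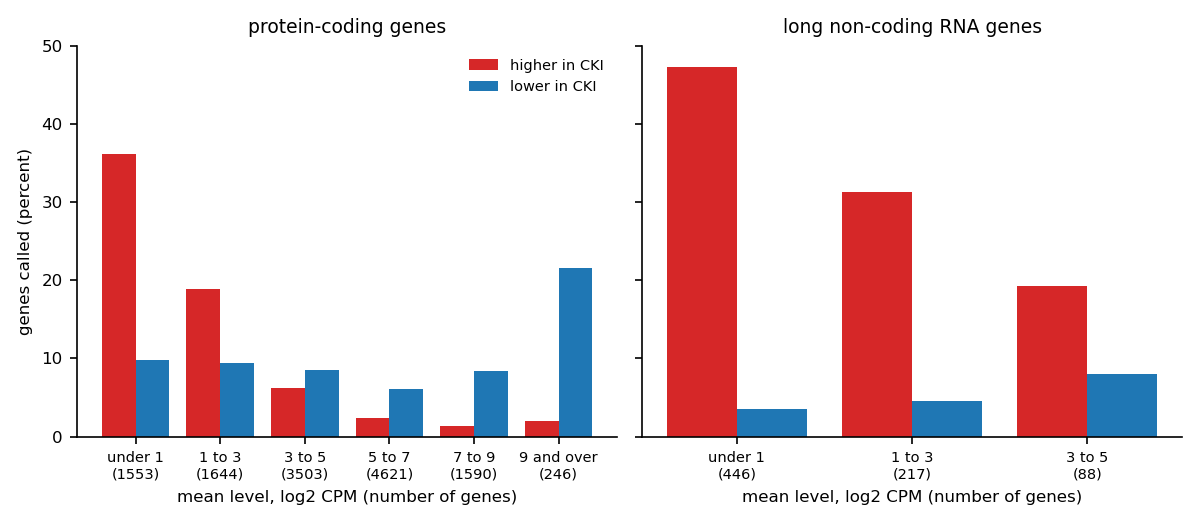
Percent of genes called higher (red) or lower (blue) in CKI than in Baituling by mean level (log2 CPM) for protein-coding and long non-coding RNA genes, with the number of genes in each bin; bins with fewer than 20 genes are not drawn. Among genes that passed the filter, the share called higher falls from 36.1% to 2.03% of protein-coding genes with rising level. It is larger for long non-coding RNA genes in each bin drawn.

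Regulatory RNAs were among the largest rises. NEAT1, the scaffold RNA of paraspeckles, was at 1114, 1010 and 708 CPM in the CKI libraries and at 56.5, 73.2 and 74.8 CPM in the Baituling libraries. The CKI libraries varied among themselves for NEAT1, but all 3 lay above all Baituling libraries. The log2 fold change was 3.79 ± 0.19 (SE, adjusted p = 8.22e-13). Here and below, the SE was worked back from the test, as the size of the fold change divided by the square root of the F statistic. LUCAT1, a stress-responsive long non-coding RNA, was at 19.6, 20.6 and 18.8 CPM against 1.46, 1.48 and 1.22 CPM, a log2 fold change of 3.82 ± 0.14. LUCAT1 lies opposite ADGRV1 and the libraries do not keep strand, so reads of the pair cannot be told apart.

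The highest rises otherwise included genes with no common list. ALPP, placental alkaline phosphatase, was at 10.0, 9.23 and 9.95 CPM in CKI and at 0.342, 0.165 and 0.607 CPM in Baituling (log2 fold change 4.70 ± 0.23, adjusted p = 4.51e-13). Its near-identical family members can share its reads. LUM, which encodes the collagen-binding proteoglycan lumican, was at 6.67, 6.61 and 7.39 CPM against 0.439, 0.274 and 0.331 CPM (4.27 ± 0.23). The groups were far apart for both genes, although no Baituling library held more than 11 counts of ALPP or 9 of LUM. PRSS35, a serine protease family member, rose by 4.07 ± 0.26 and C11orf86 by 4.45 ± 0.26 on the log2 scale.

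Among the steepest falls, HAS2, a hyaluronan synthase, was at 3.26, 2.30 and 2.92 CPM in CKI and at 65.7, 59.5 and 61.0 CPM in Baituling (-4.45 ± 0.09, adjusted p = 1.84e-18). PDZK1IP1 fell by 3.97 ± 0.15, LGALS12, a galectin, by 3.84 ± 0.09 and VCAM1, a leukocyte adhesion molecule, by 3.82 ± 0.08. IGFBP1, an insulin-like growth factor binding protein, was at 5.96, 4.96 and 5.77 CPM in CKI and at 81.6, 76.6 and 74.6 CPM in Baituling, a log2 fold change of -3.80 ± 0.09 (adjusted p = 1.92e-17). MUSK, a receptor tyrosine kinase of the neuromuscular junction, was at 5.65, 5.12 and 4.27 CPM against 41.9, 41.1 and 44.6 CPM (-3.08 ± 0.09). LMNB1, a lamin of the nuclear envelope, was at 22.8, 22.5 and 23.5 CPM against 167, 171 and 168 CPM (-2.88 ± 0.05). No library of one group reached the other for these 3 genes, as for 78.3% of all genes tested. S100A2, a calcium-binding protein, fell by 2.91 ± 0.07, RHOJ, a small GTPase, by 2.99 ± 0.11, and SIGIRR, an inhibitor of interleukin-1 receptor signalling, by 2.90 ± 0.12.

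Most AhR genes rose. Of 8 tested, 5 were called higher, beside 11.2% of all genes, and 0 lower. The test was passed upward by 7 and downward by 1, beside 39.1% and 37.0% of all genes. The median log2 fold change was 1.67. CYP1A1, a P450 enzyme that oxidises aromatic compounds, was at 158, 155 and 154 CPM in CKI and at 2.39, 2.36 and 2.48 CPM in Baituling, a log2 fold change of 6.01 ± 0.07. The Kushen libraries lay between, at 62.1, 59.0 and 56.6 CPM. CYP1B1, a related P450, was at 490, 479 and 494 CPM against 136, 141 and 148 CPM (log2 fold change 1.78 ± 0.04, adjusted p = 1.29e-17), and its antisense neighbour CYP1B1-AS1, which unstranded reads cannot fully separate from it, rose by 3.73 ± 0.23. Both feedback inhibitors of AhR were higher too. AHRR, the AhR repressor, was at 5.69, 5.56 and 5.37 CPM against 1.02, 1.37 and 1.44 CPM (2.12 ± 0.19), and TIPARP was at 193, 183 and 184 CPM against 60.7, 64.4 and 64.4 CPM (1.56 ± 0.04). The receptor gene AHR itself was at a log2 fold change of -0.27 ± 0.04, a direction that turned to 0.02 with library totals.

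The promoters of CYP1A1 and AHRR are shown because both genes rose and both hold the core of the AhR response element, GCGTG. The 250 bases before each RefSeq start site are given 5′ to 3′ on the gene's strand, from GRCh38.p14, a later build than the hg19 build of the counts. Capitals mark GCGTG on either strand.
CYP1A1: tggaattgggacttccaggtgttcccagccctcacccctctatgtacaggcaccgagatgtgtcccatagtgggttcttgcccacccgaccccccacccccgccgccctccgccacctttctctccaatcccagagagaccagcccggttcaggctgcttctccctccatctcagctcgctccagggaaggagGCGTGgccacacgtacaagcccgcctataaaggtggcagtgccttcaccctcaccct
AHRR: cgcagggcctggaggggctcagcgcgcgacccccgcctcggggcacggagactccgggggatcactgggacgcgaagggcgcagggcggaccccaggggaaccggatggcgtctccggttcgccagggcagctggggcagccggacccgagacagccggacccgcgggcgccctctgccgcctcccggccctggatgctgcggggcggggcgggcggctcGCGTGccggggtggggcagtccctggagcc
These are chr15:74725529-74725778 on the minus strand and chr5:321464-321713 on the plus strand. The match began 57 bases before the start in CYP1A1 and 30 bases before it in AHRR. Promoters were matched for 6 of the 8 AhR genes, and 3 (50%) held GCGTG. The motif is short, and 31.9% of all 27305 RefSeq promoters and 44.8% of those of the genes tested held it. Its share was 37.4% among genes called higher, 40.8% among genes called lower and 46.1% among the rest.

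NRF2 targets were higher over a wider set of genes. Of 29 tested, 15 were called higher and 0 lower, and the median log2 fold change was 1.03. The test was passed upward by 25 and downward by 4, beside 39.1% and 37.0% of all genes. The glutathione arm included GCLM, the modifier subunit of the enzyme that starts glutathione synthesis, at 232, 237 and 229 CPM in CKI and 44, 44 and 45.9 CPM in Baituling (2.38 ± 0.04, adjusted p = 6.81e-19). Its catalytic partner GCLC was 1.40 ± 0.05 higher, and SLC7A11, which imports cystine for the same pathway, was at 171, 167 and 161 CPM against 45.8, 50.1 and 47.1 CPM (1.80 ± 0.05). The CKI libraries were above the Baituling libraries for all 3, and the groups did not overlap for 78.3% of all genes tested.

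Single genes of thioredoxin and NADPH metabolism were higher too. SRXN1, which repairs oxidised peroxiredoxins, was at 84.6, 80.3 and 80.0 CPM against 19.5, 17.7 and 16.6 CPM (2.18 ± 0.09), and TXNRD1, thioredoxin reductase, was 1.36 ± 0.04 higher. ME1, malic enzyme, which makes NADPH, was at 75.3, 76.4 and 75.5 CPM against 20.3, 21.8 and 19.9 CPM (1.87 ± 0.05). TRIM16L rose by 2.24 ± 0.06. NFE2L2, which encodes NRF2, was 0.30 ± 0.04 higher and KEAP1 was lower at -0.31 ± 0.05, the latter a difference close to the shift between scalings.

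The promoters of GCLM and ME1 are shown because each holds the antioxidant response element core TGACNNNGC, where N is any base. Capitals mark it on either strand.
GCLM: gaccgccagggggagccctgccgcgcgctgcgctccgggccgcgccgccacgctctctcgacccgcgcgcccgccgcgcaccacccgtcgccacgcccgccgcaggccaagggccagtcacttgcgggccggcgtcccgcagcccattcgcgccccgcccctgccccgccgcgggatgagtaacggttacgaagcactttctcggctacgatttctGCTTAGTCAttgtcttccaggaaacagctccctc
ME1: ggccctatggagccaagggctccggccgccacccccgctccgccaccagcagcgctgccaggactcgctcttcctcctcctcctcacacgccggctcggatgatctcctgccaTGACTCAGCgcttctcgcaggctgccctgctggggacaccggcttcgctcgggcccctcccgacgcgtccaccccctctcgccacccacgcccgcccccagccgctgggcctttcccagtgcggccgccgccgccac
These are chr1:93909431-93909680 and chr6:83431052-83431301 of GRCh38.p14, both on the minus strand of the chromosome. The match began 34 bases before the start in GCLM, on the opposite strand of the gene, and 137 bases before it in ME1. Of 21 NRF2 list promoters matched, 5 (23.8%) held the core, as did 12.1% of the promoters of all genes tested. The share was 14.2% among genes called higher and 9.99% among genes called lower.

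Aldo-keto reductases, which reduce aldehydes and ketones of steroids and drugs, had the largest median of the 63 pathway lists. Of 7 tested, 5 were called higher, 0 were called lower and the median log2 fold change was 2.98. AKR1C1, which inactivates progesterone, was at 32.8, 35.8 and 34.6 CPM in CKI against 1.12, 1.53 and 1.49 CPM in Baituling (4.64 ± 0.11, adjusted p = 1.32e-17). AKR1C3, which makes active androgens and prostaglandin F, was at 130, 131 and 137 CPM against 17.6, 16.8 and 15.9 CPM (2.98 ± 0.06), and AKR1C2 rose by 4.54 ± 0.18. AKR1B1, aldose reductase, was the most abundant, at 863, 893 and 913 CPM against 197, 186 and 183 CPM (2.24 ± 0.04). The AKR1C genes are close copies, and the split of reads among them is uncertain.

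**Figure D3:**
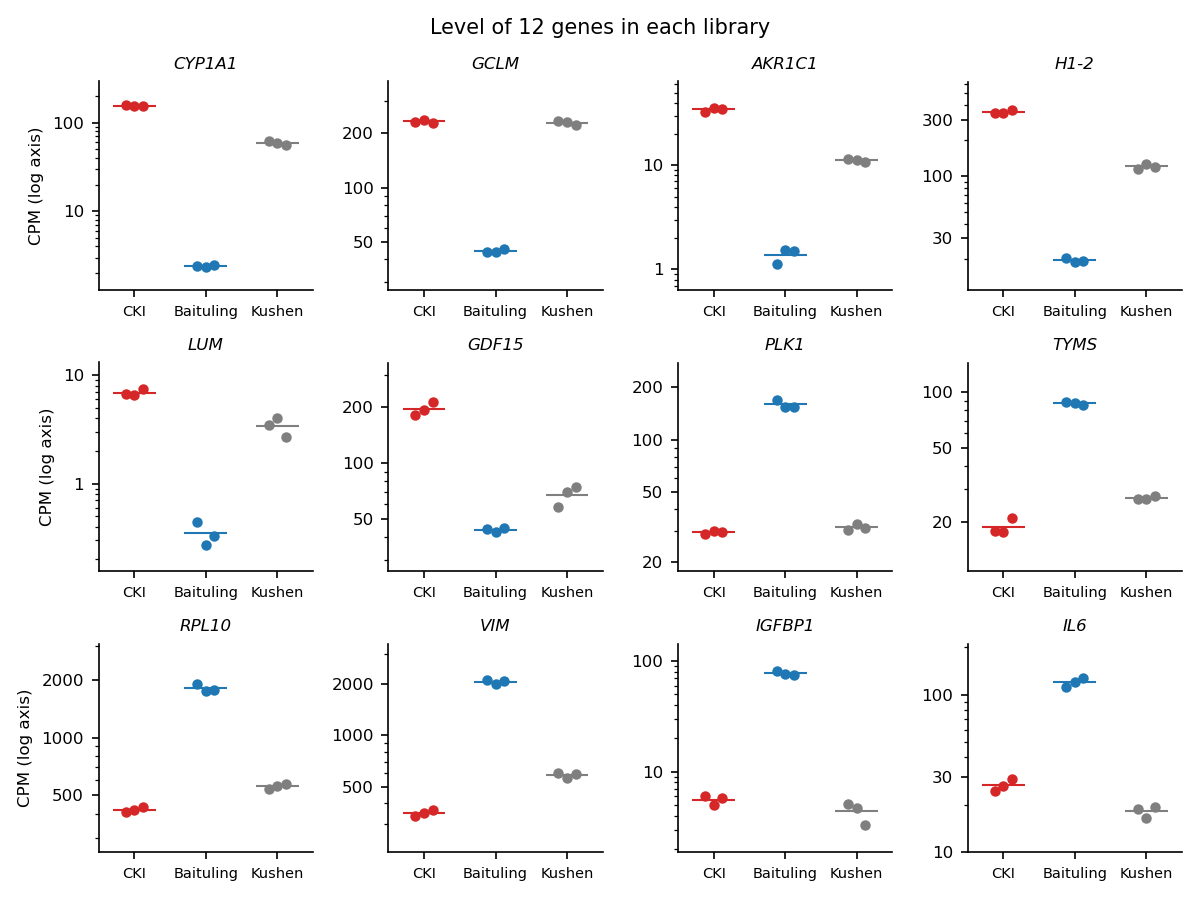
Level (CPM, log axis) of 12 genes in each of the 3 CKI, 3 Baituling and 3 Kushen libraries; points are libraries and lines are group means. The 12 genes were picked from the named genes, which were chosen with earlier results known. The CKI and Baituling libraries do not overlap for any of the 12, as for 78.3% of all genes tested. For GCLM and PLK1 the Kushen libraries lie next to the CKI libraries.

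Transporters and iron genes gave a mixed picture. Of 23 drug transporters tested, 7 were called higher and 3 lower, beside 11.2% and 7.91% of all genes. SLCO2B1, an organic anion uptake carrier, was at 6.16, 7.09 and 6.44 CPM against 0.0488, 0.219 and 0 CPM (6.13 ± 0.33), with at most 4 counts in a Baituling library. ABCG2, the breast cancer resistance protein, which exports drugs, was at 17.7, 17.1 and 17.6 CPM against 2.88, 3.13 and 3.26 CPM (2.5 ± 0.10, adjusted p = 4.32e-14), and SLC47A1, an organic cation exporter, rose by 3.13 ± 0.31. SLCO4A1, a thyroid hormone carrier, went the other way, at 34.1, 35.7 and 35.8 CPM against 258, 236 and 237 CPM (-2.79 ± 0.06). FTL, the ferritin light chain, was at 3972, 4142 and 4416 CPM against 1604, 1430 and 1455 CPM (1.48 ± 0.05), and the iron exporter gene SLC40A1 rose by 1.23 ± 0.11, while STEAP3, a ferrireductase, fell by 1.11 ± 0.05. Of 22 iron and heme genes, 3 were called higher and 1 lower, beside the same shares of all genes. MT1X, a metallothionein, was 1.72 ± 0.06 higher, and it has close copies.

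Not all antioxidant genes rose. Of 21 peroxiredoxins, peroxidases, dismutases and glutaredoxins tested, 0 were called higher and 3 lower. GPX1, the main cytosolic glutathione peroxidase, was at 138, 152 and 156 CPM in CKI and at 981, 838 and 839 CPM in Baituling. The log2 fold change was -2.58 ± 0.07 (adjusted p = 3.84e-17) and the groups did not overlap. SOD3, the extracellular dismutase, fell by 1.15 ± 0.09, and PRDX1, an NRF2-responsive peroxiredoxin, passed the test upward at 0.76.

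Mitotic genes fell together. All 52 tested were lower at an adjusted p under 0.05, beside 37.0% of all genes. Of these, 44 were called lower, beside 7.91% of all genes, and the median log2 fold change was -1.54. No CKI library reached a Baituling library for any of the 52, and the groups did not overlap for 78.3% of all genes tested. PLK1, the mitotic entry kinase, was at 28.8, 30.1 and 29.5 CPM in CKI against 169, 155 and 155 CPM in Baituling (-2.44 ± 0.05, adjusted p = 3.34e-18). CDC20, the activator of the anaphase-promoting complex, was at 63.5, 71.0 and 68.6 CPM against 362, 333 and 334 CPM (-2.34 ± 0.06). KIF20A, a kinesin of cytokinesis, was at 16.9, 19.3 and 17.0 CPM against 126, 132 and 127 CPM (-2.86 ± 0.06), and UBE2C, the ubiquitin-conjugating enzyme of the same complex as CDC20, fell by 2.64 ± 0.05. FOXM1, a transcription factor of mitotic genes, fell by 1.20 ± 0.05.

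The promoters of PLK1 and CDC20 are shown because both genes fell and both hold TTTGAA, the core of the cell cycle genes homology region that represses mitotic genes outside G2 and M phase. Capitals mark TTTGAA on either strand.
PLK1: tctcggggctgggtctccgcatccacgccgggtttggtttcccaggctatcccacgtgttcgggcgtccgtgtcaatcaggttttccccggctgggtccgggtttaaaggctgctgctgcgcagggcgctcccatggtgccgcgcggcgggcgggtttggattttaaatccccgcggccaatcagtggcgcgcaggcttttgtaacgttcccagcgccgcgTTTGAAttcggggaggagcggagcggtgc
CDC20: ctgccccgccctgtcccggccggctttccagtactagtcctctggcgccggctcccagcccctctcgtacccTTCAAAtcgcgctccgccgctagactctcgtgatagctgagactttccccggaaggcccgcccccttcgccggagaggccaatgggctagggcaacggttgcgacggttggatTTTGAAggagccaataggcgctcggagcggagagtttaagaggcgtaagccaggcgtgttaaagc
These are chr16:23678639-23678888 and chr1:43358731-43358980 of GRCh38.p14, both on the plus strand. The match began 29 bases before the start in PLK1 and 178 and 65 bases before it in CDC20, the first of these on the opposite strand. Promoters were matched for 43 of the 52 mitotic genes, and 24 (55.8%) held TTTGAA, whereas 8.43% of the promoters of all genes tested did. Among genes called lower the share was 13.8%, among genes called higher 8.89% and among the rest 7.87%. None of the 3 motifs contains another.

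Lists for earlier steps of the cycle had medians nearer 0. Of 43 replication fork and licensing genes, 13 were called lower, 0 were called higher and 39 passed the test downward, with a median of -0.69. MCM7, a subunit of the replicative helicase, was at 135, 132 and 138 CPM against 452, 420 and 417 CPM (-1.67 ± 0.05, adjusted p = 1.31e-16), LIG1, the ligase of the lagging strand, fell by 1.84 ± 0.06, and CDT1, which loads the helicase, by 1.70 ± 0.08. PCNA, the sliding clamp, passed the test at -0.91 ± 0.04. Nucleotide synthesis genes had 14 of 28 called lower and 0 called higher, and a median of -0.99. TYMS, thymidylate synthase, was at 18.0, 17.7 and 21.1 CPM against 88.5, 87.2 and 85.1 CPM (-2.20 ± 0.06), and RRM2, a ribonucleotide reductase subunit, fell by 1.75 ± 0.05.

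Regulators of G1 phase were called only downward. Of 28 tested, 5 were called lower, beside 7.91% of all genes, and 0 higher, with a median of -0.46. The test was passed downward by 19 and upward by 6, beside 37.0% and 39.1% of all genes. E2F2 and E2F8, activator and repressor members of the E2F family, fell by 1.85 ± 0.15 and 1.71 ± 0.11. CCND1, cyclin D1, was at 457, 451 and 460 CPM against 779, 834 and 777 CPM, and passed the test without being called (-0.80 ± 0.04). The CDK inhibitor genes went different ways. CDKN1A, which encodes p21, was at 352, 373 and 378 CPM against 223, 223 and 222 CPM (0.72 ± 0.05), and CDKN1C and CDKN2C were called lower, at -1.27 ± 0.10 and -1.23 ± 0.06.

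Other stress-responsive growth regulators differed unevenly. GDF15, a stress-induced cytokine, was at 181, 193 and 215 CPM against 44, 42.3 and 44.4 CPM (2.17 ± 0.08). MDM2, a ubiquitin ligase, was at 42.1, 38.3 and 39.6 CPM against 41.4, 44.4 and 43.1 CPM, which overlapped (-0.10 ± 0.06).

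Most of the replication-dependent histone genes tested rose. The list held 33 genes, and those that did not pass the filter had at most 11 counts in any library. Of 14 tested, 10 were called higher and 2 lower, with a median of 2.24. H1-2, a linker histone, was at 339, 339 and 361 CPM against 20.6, 19 and 19.5 CPM (4.13 ± 0.06, adjusted p = 7.19e-21), and H2BC5, a core histone, was at 71.1, 70.8 and 67.5 CPM against 5.95, 7.84 and 6.79 CPM (3.35 ± 0.08). H4C8 rose by 3.77 ± 0.13 and H2BC21 by 2.88 ± 0.16. Most histone messages of this kind lack a poly(A) tail and the genes are near-identical, so the split of reads among them is uncertain. The total over the list was 602, 601 and 618 CPM in CKI and 97.8, 92.5 and 102 CPM in Baituling.

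The translation machinery was lower. Of 85 cytosolic ribosomal protein genes, 79 passed the test downward, beside 37.0% of all genes. The calls were 29 lower and 1 higher, with a median of -0.88. Ribosomal protein genes took 4.36% to 4.52% of the counts of the CKI libraries and 7.05% to 7.61% of those of the Baituling libraries. RPL10, a large subunit protein, was at 407, 416 and 434 CPM against 1916, 1760 and 1781 CPM (-2.12 ± 0.04, adjusted p = 2.49e-18), and RPL3, at the catalytic centre of the large subunit, fell by 1.62 ± 0.04. RPL22L1, a paralog of RPL22, was at 21.2, 22.1 and 20.6 CPM against 101, 102 and 104 CPM (-2.26 ± 0.06). Many ribosomal protein genes have processed pseudogenes that can share reads.

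Ribosome assembly and splicing lists also held more falls than rises. Of 44 ribosome biogenesis genes, 8 were called lower and 0 higher, with a median of -0.49. NPM1, nucleophosmin, was at 646, 644 and 676 CPM against 1617, 1568 and 1564 CPM (-1.27 ± 0.04), and FBL, the methylase of ribosomal RNA, fell by 1.26 ± 0.05. Of 39 SR proteins, hnRNPs and splicing kinases, 9 were called lower and 0 higher. HNRNPA1 was at 420, 424 and 426 CPM against 1434, 1414 and 1427 CPM (-1.75 ± 0.04), and SRSF1 and SRSF3 each fell by 1.40 ± 0.04. Of 21 small nucleolar RNA host genes, 4 were called lower and 2 higher, and SNHG32 fell by 1.81 ± 0.04. Mitochondrial ribosomal proteins had a median of -0.38 with 4 of 74 called lower and 0 higher.

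Zinc finger genes of chromosome 19 had a median above 0. They encode mostly KRAB repressors of transposable elements. Of 215 tested, 33 (15.3%) were called higher, near the 11.2% over all genes, and 1 was called lower. The median was 0.49, with 142 passing the test upward and 20 downward, beside 39.1% and 37.0% of all genes. ZNF114 was at 20.8, 22.2 and 20.9 CPM against 2.54, 3.18 and 3.15 CPM (2.85 ± 0.11). MXD1, an antagonist of MYC, rose by 1.70 ± 0.07, while MYC itself was at -0.31 ± 0.05, close in size to the shift between scalings.

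**Figure D4:**
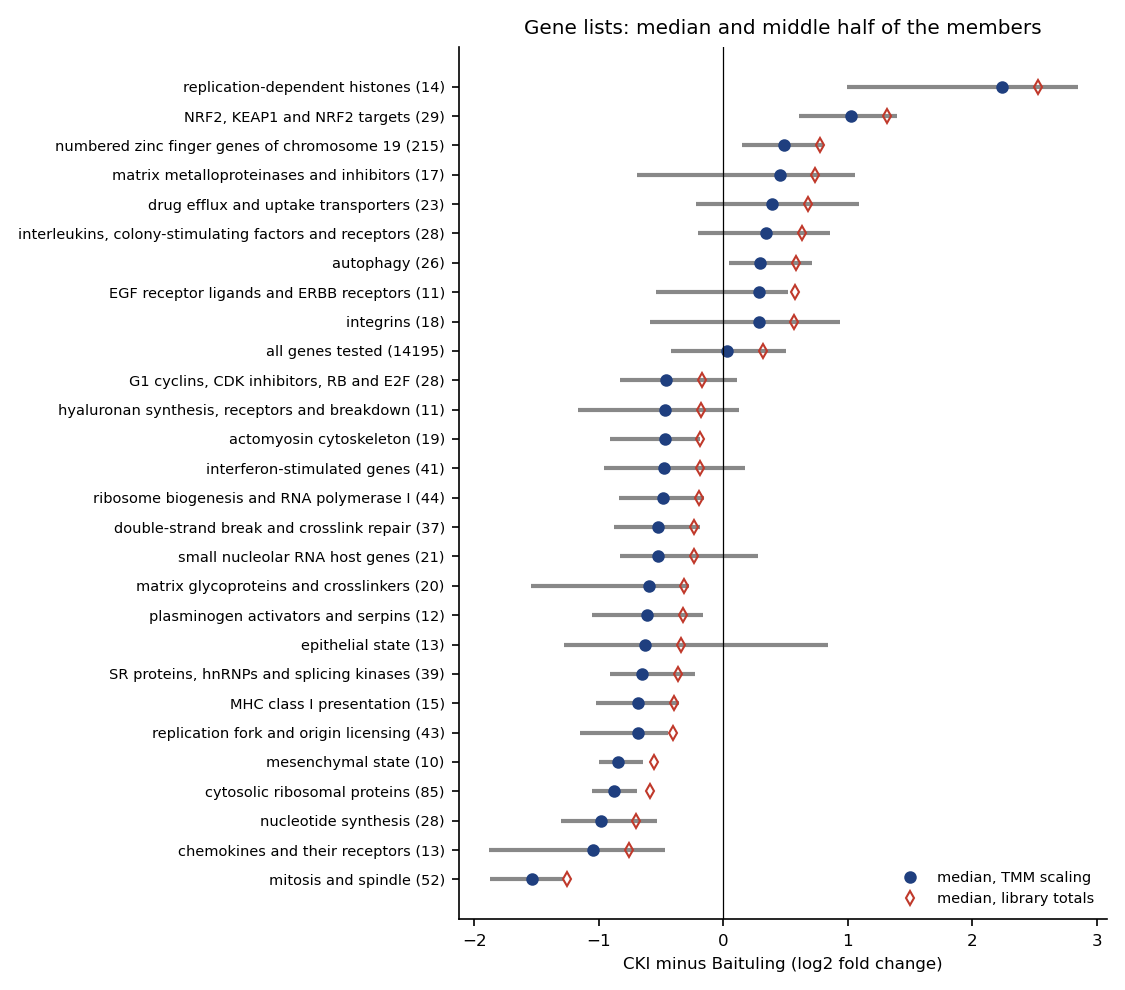
Median log2 fold change of CKI against Baituling (filled circles) with the interquartile range (grey bars) for lists with at least 10 genes tested and a median below -0.4 or above 0.28, and for all genes, with the number tested; open diamonds give the median under library totals. The mitotic list lies lowest at -1.54 and the histone list highest at 2.24, and library totals move each median upward.

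Cytoskeleton and cell state lists held abundant genes that fell and a few that rose. Of 19 actomyosin genes, 3 were called lower and 0 higher, and of 12 tubulins, 4 were called lower and 1 higher. VIM, the mesenchymal intermediate filament, was at 336, 351 and 364 CPM in CKI against 2116, 2014 and 2079 CPM in Baituling (-2.56 ± 0.04, adjusted p = 2.35e-19). KRT18, an epithelial keratin, was at 126, 126 and 128 CPM against 332, 308 and 303 CPM (-1.31 ± 0.04), with KRT8 on the opposite strand. ACTB, cytoplasmic actin, was at 2075, 2119 and 2273 CPM against 7445, 7008 and 7062 CPM (-1.73 ± 0.04), and TUBA1B, an alpha-tubulin, fell by 1.91 ± 0.05. Of 10 mesenchymal genes, 3 were called lower and 1 higher, and of 13 epithelial genes, 5 were called lower and 3 higher. TJP3, a tight junction protein, rose by 3.23 on the log2 scale. ZEB1, a repressor of epithelial genes, overlapped between groups (-0.06 ± 0.05).

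Matrix genes went both ways within each family. Of 20 matrix glycoproteins and crosslinkers, 7 were called lower and 2 higher, beside 7.91% and 11.2% of all genes. TNC, the matrix protein tenascin C, was at 19.2, 19.8 and 19.1 CPM against 136, 141 and 140 CPM (-2.84 ± 0.05, adjusted p = 3.76e-19), and FN1, fibronectin, was at 488, 480 and 476 CPM against 1280, 1471 and 1398 CPM (-1.52 ± 0.05). The collagen crosslinkers LOXL4 and LOXL1 fell by 2.04 and 1.94 on the log2 scale. Collagens and laminins had 11 of 39 called higher and 6 lower, 14 passed the test upward and 19 downward, and their median of -0.02 became 0.27 with library totals. COL6A3 fell by 1.55 ± 0.05.

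Matrix enzymes also went both ways, with 6 of 17 metalloproteinases and inhibitors called higher and 3 lower. Over all genes, 11.2% were called higher and 7.91% lower. MMP1, interstitial collagenase, was at 246, 258 and 262 CPM against 103, 102 and 98.9 CPM (1.33 ± 0.04). MMP14, a membrane-bound metalloproteinase, was at 862, 891 and 932 CPM against 1977, 1952 and 1911 CPM (-1.12 ± 0.05). TIMP3, a matrix-bound inhibitor, fell by 1.75 ± 0.04. The laminin-binding integrin genes ITGB4 and ITGA6 fell by 1.49 ± 0.06 and 1.30 ± 0.04, and ITGA7 and ITGB3 rose by 2.15 and 1.39. CEMIP, which breaks down hyaluronan, fell by 1.80 ± 0.05.

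Secreted immune signals were divided. Of 13 chemokines and receptors, 7 were called lower and 2 higher, beside 7.91% and 11.2% of all genes. CXCL1, a neutrophil attractant, was at 4.63, 4.67 and 5.13 CPM against 33.6, 33.5 and 35.3 CPM (-2.82 ± 0.11, adjusted p = 7.61e-15), and its close relative CXCL2 fell by 2.34 ± 0.13. CXCL16 was at 13.9, 14.8 and 14.8 CPM against 2.39, 3.62 and 3.20 CPM (2.24 ± 0.14). IL6, an inflammatory cytokine, was at 24.3, 26.2 and 29.3 CPM against 112, 120 and 127 CPM (-2.17 ± 0.07). CSF3, granulocyte colony-stimulating factor, fell by 3.42 ± 0.21. IL24, a cytokine of the IL-10 family, was at 33.2, 33.1 and 38.1 CPM against 3.90, 3.4 and 2.98 CPM (3.34 ± 0.11). IL1B, interleukin-1 beta, was lower at -0.56 ± 0.07 without being called. Among 28 interleukins, colony-stimulating factors and receptors, 5 were called higher and 2 lower.

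More interferon and antigen presentation genes were lower than higher. Of 41 interferon-stimulated genes, 8 were called lower, beside 7.91% of all genes, and 0 higher, with a median of -0.48. Of these 41, 25 passed the test downward, 9 upward and 7 in neither direction. Over all genes, 37.0% passed it downward and 39.1% upward. OAS3, an antiviral synthetase, was at 9.96, 11.2 and 11.2 CPM against 34.6, 39.3 and 39.3 CPM (-1.80 ± 0.08), and IFIT2 fell by 1.72 ± 0.06. Of 15 genes of MHC class I presentation, 14 passed the test downward, beside 37.0% of all genes. Of the 15, 4 were called lower and 0 higher. The 4 called were HLA-F, at -1.42 ± 0.10, and the immunoproteasome genes PSMB10, PSMB8 and PSMB9. These immunoproteasome genes fell by 2.21 ± 0.12, 1.37 ± 0.05 and 1.11 ± 0.06. Class I genes share reads. NFKB1, an NF-kB subunit, passed the test at -0.93 ± 0.06, and of 18 genes of its list 2 were called lower and 0 higher.

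Growth factor genes included several secreted antagonists. Besides IGFBP1, the binding proteins IGFBP6, IGFBP4 and IGFBP3 fell by 1.81 ± 0.06, 1.46 ± 0.05 and 1.15 ± 0.04, and IGFBP4 was abundant at 1413, 1494 and 1557 CPM against 4344, 4054 and 3917 CPM. FST, which binds activin, was at 22.7, 24.8 and 24.4 CPM against 96.6, 100.2 and 97.2 CPM (-2.03 ± 0.05). TGFBR3, the type III TGF-beta receptor, rose by 1.86 ± 0.08, and ID3, an inhibitor of helix-loop-helix factors, by 1.93 ± 0.11. EGF, epidermal growth factor, was at 6.32, 5.56 and 5.13 CPM against 1.42, 1.53 and 2.04 CPM (1.77 ± 0.17). Of 14 prostaglandin genes, 5 were called higher and 0 lower, among them PTGS1, cyclooxygenase-1, at 2.29 ± 0.25 and HPGD, which inactivates prostaglandins, at 2.47 ± 0.23.

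Immediate early genes split as well, with 8 of 27 called higher and 3 lower, beside 11.2% and 7.91% of all genes. EGR1, a growth-responsive transcription factor, was at 466, 482 and 534 CPM against 128, 166 and 220 CPM (1.53 ± 0.14, adjusted p = 5.93e-09), and its relative EGR2 rose by 2.79 ± 0.20. FOSB, an AP-1 subunit, was at 16.7, 16.2 and 13.0 CPM against 33.8, 36.9 and 45.5 CPM (-1.34 ± 0.11), and FOS passed the test at -0.44 ± 0.09. The Baituling libraries were spread for EGR1 but stayed below all CKI libraries.

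Metabolic lists showed smaller medians. Of 25 cholesterol genes, 4 were called lower and 0 higher, with a median of -0.35. HMGCS1, an early enzyme of the pathway, fell by 1.42 ± 0.05. SREBF2, its transcription factor, passed the test at -0.46 ± 0.05. Among fatty acid oxidation genes, PDK4, which spares glucose, was at 28.5, 27.8 and 28.5 CPM against 6.39, 7.46 and 8.23 CPM (1.95 ± 0.08), and PPARA, a nuclear receptor for fatty acids, rose by 1.85 ± 0.06. Of 31 glycolysis and hypoxia genes, GAPDH alone was called, at -1.03 ± 0.04, and the list median of -0.12 became 0.17 with library totals. HIF1A, the oxygen-sensitive factor, was at -0.21 ± 0.04, which turned to 0.08 with library totals. Of 81 oxidative phosphorylation genes, 3 were called in each direction.

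Stress and degradation lists held few calls or calls in both directions. Of 22 ATF4 targets, 4 were called higher and 3 lower, beside 11.2% and 7.91% of all genes, with a median of -0.40. SHMT2, a mitochondrial serine enzyme, fell by 1.36 ± 0.05. DDIT3, the stress factor CHOP, was at 40.2, 43.1 and 41.4 CPM against 9.12, 7.57 and 10.2 CPM (2.21 ± 0.09, adjusted p = 1.33e-14), with MARS1 and MBD6 on the opposite strand. ATF4, an upstream regulator of it, was lower at -0.92 ± 0.04. ERN1, the unfolded protein sensor IRE1, rose by 1.28 ± 0.06, and 1 of 22 genes of that list was called higher and 0 lower. HSPB1, a small heat shock protein, was at 124, 134 and 147 CPM against 569, 484 and 491 CPM (-1.93 ± 0.07), while HSPB8 rose by 1.61 ± 0.11 and DNAJB4, a co-chaperone, by 1.60 ± 0.07. Of 19 genes of that list, 2 were called higher and 1 lower. SQSTM1, the autophagy receptor p62 and an NRF2 target, was at 862, 858 and 902 CPM against 284, 278 and 258 CPM (1.68 ± 0.05). It was the only one of 26 autophagy genes called, although 19 passed the test upward, beside 39.1% of all genes. Of 35 BCL2 family, caspase and death receptor genes, BMF, a pro-apoptotic BH3-only gene, was called higher at 1.38 ± 0.09 and BOK, a BAX-like gene, lower at -1.11 ± 0.07. In the circadian list, PER2 fell by 1.72 ± 0.21 and BMAL1 rose by 1.29 ± 0.09.

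The Kushen libraries place these differences beside the other single injection. CKI against Kushen shares the CKI libraries with the comparison above, so values are given side by side only. CKI against Kushen had 270 genes called (1.9%), with 19.6% of genes passing the test upward and 20.2% downward. For the mitotic list, the median was -1.54 against Baituling and -0.23 against Kushen, where 37 of 52 genes passed the test downward and 0 upward. For NRF2 targets it was 1.03 and -0.01, with 9 genes higher and 12 lower than in Kushen. GCLM was at 232, 231 and 223 CPM in Kushen, a CKI minus Kushen log2 fold change of 0.02 ± 0.04 (adjusted p = 0.69).

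Further lists, besides the mitotic list, differed from both single injections. Histones were higher in CKI than in Baituling by a median of 2.24 and than in Kushen by 1.24, and 12 of 14 passed the test upward against Kushen. Aldo-keto reductases had medians of 2.98 and 0.67. AKR1C1 was at 11.5, 11.2 and 10.7 CPM in Kushen, between the Baituling and CKI libraries, as was GDF15, at 58.2, 69.6 and 74.6 CPM. Ribosomal protein genes had medians of -0.88 and -0.24, and 71 of 85 passed the test downward against Kushen.

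Of the 63 pathway lists, 24 had medians of opposite sign against the 2 single injections, and in 5 of these both medians were beyond 0.1 in size. Chemokines had a median of -1.05 against Baituling and 0.62 against Kushen, and interferon-stimulated genes had -0.48 and 0.17. FOSB was at 1.21, 1.35 and 1.86 CPM in Kushen, lowest of the 3 groups, and the CKI libraries lay between Kushen and Baituling. The same order held for IL6, which was at 18.8, 16.5 and 19.3 CPM in Kushen. MMP1 was at 97.8, 104 and 103 CPM in Kushen, close to Baituling, and CKI minus Kushen was 1.33 ± 0.04 (adjusted p = 3.79e-14), so CKI was higher than either single injection. EGR1 was also higher in CKI than in Kushen, whose libraries were at 79.9, 76.9 and 115 CPM (2.45 ± 0.14, adjusted p = 2.86e-10). The immediate early list had medians of 0.09 and 0.93, and 22 of 27 genes passed the test upward against Kushen.

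**Figure D5:**
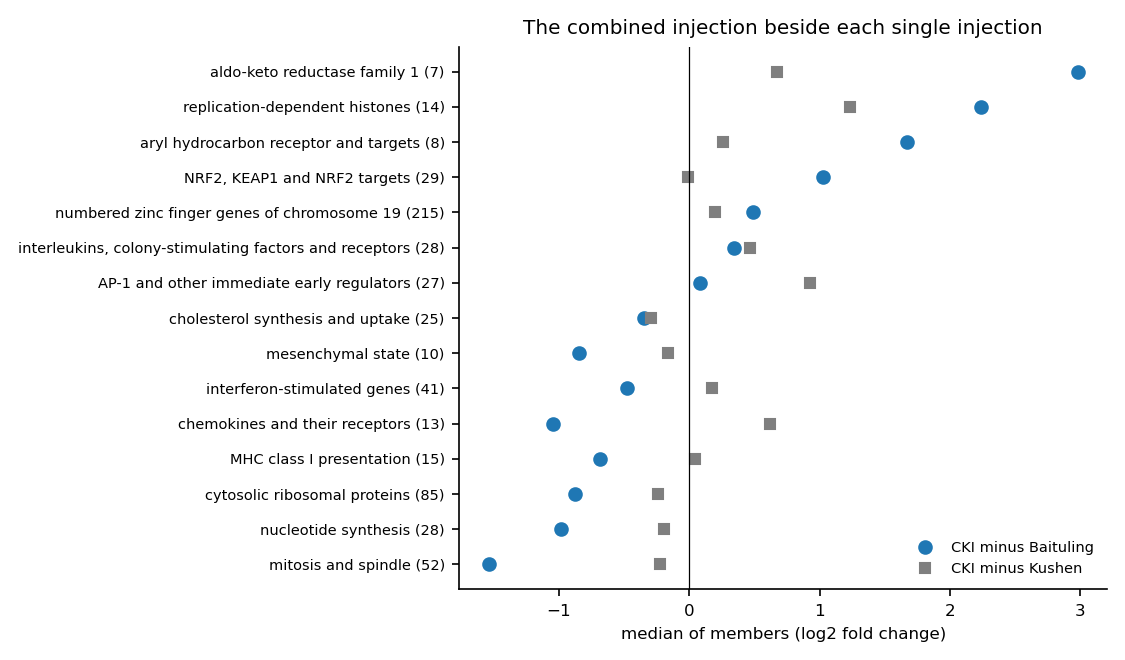
Median log2 fold change over the members of 15 lists for CKI against Baituling (circles) and CKI against Kushen (squares), with the number of genes tested; both comparisons share the 3 CKI libraries. The mitotic and NRF2 lists lie far from 0 against Baituling. Against Kushen the NRF2 list lies at -0.01 and the mitotic list at -0.23. Chemokines lie on opposite sides of 0.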

How the data were processed

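RNA was sequenced as 150 bp read pairs from unstranded libraries (NEBNext Ultra). The submitters' processing notes name Trim Galore 0.3.7, STAR 2.5.3a and hg19; the counting program and annotation are not given in the sources used here. The authors deposited raw read counts per Ensembl gene in 24566 rows, of which 222 repeated others exactly and were dropped. All columns mapped to the 9 samples. Symbols came from GENCODE on GRCh37 for 24224 genes and from RefSeq for 99, and 21 stayed unnamed.

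Counts of all 9 libraries were fitted together in edgeR 4.0.16 (R 4.3.3) after a filter for at least 10 counts and TMM scaling, with the quasi-likelihood test, two-sided, and Benjamini-Hochberg adjustment over 14195 genes. The common biological coefficient of variation was 4.53%. The spread covers separately treated samples of 1 line only. On simulated counts for this comparison, all genes changed by a log2 fold of 1.5 or 3 were called. The changed genes were drawn from those with a mean above 1 CPM. Every gene had the common spread, and the counts came from the kind of model that was fitted. The simulation therefore cannot show what share of true differences was found in the real counts. Members of the 63 pathway lists and 5 marker lists were chosen with earlier results of these data known. Named genes were the 15 largest rises and falls with a mean of at least 1 log2 CPM and no overlap, and up to 4 members a list with the largest difference; the genes CYP1A1, CCND1, IL1B, AHR, NFE2L2, KEAP1, MYC, FOXM1, ATF4, HIF1A, SREBF2, NFKB1 and VIM were named in any case. AKR1B1, CDKN1A, FN1, FOS, FOSB, GCLC, MDM2, PCNA, TXNRD1 and ZEB1 were chosen after their values were seen. Some genes that these rules name, and 1 list, are not reported here. Genes with a read-sharing copy or an antisense partner are uncertain. Alternatives were library totals, relative log expression, upper quartile scaling, DESeq2 1.42.0, other filters, fold thresholds, 6 libraries only, a replicate block, repeated rows kept, each library left out and, chosen after seeing the data, Baituling library 1 alone.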

Additional observations from a re-analysis of the deposited data

How the results depend on the processing

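Calls depended on scaling and thresholds more than on single libraries. Of 2715 genes called, 1592 were higher and 1123 lower. Library totals gave 2527 higher and 630 lower, a filter of at least 10 counts in every library gave 885 higher and 1808 in all, a test against a log2 fold change of 1 gave 782 higher, 733 lower and 1515 in all, and no fold threshold gave 5548 higher, 5254 lower and 10802 in all. Upper quartile scaling moved the share higher to 64.1%. DESeq2 called 2955 genes. Without each library in turn, 2677 to 2839 genes were called, 1536 to 1675 higher and 1116 to 1165 lower. With Baituling library 1 alone, whose spread is then taken from the other groups, 1596 were higher and 1217 lower.

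The replicate numbers do not pair the samples: deviations of same-numbered libraries correlated at -0.0746 to -0.0161 and those of other pairs at -0.00616 to 0.0754. A fit with a replicate block called 2713 genes, and it moved no other count by over 1.5 times.

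Library totals turned the sign of small medians: 0.226 for phase II enzymes, 0.0907 for fatty acid synthesis, 0.168 for glycolysis, 0.0189 for aminoacyl-tRNA synthetases, 0.132 for heat shock chaperones, 0.170 for the proteasome, 0.215 for MAPK inhibitors, 0.225 for TGF-beta genes, 0.245 for YAP targets, 0.133 for Wnt genes, 0.266 for collagens and laminins, 0.112 for adhesion molecules and 0.0769 for the BCL2 family. The same scaling gave 0.0774 for HIF1A, 0.0169 for AHR, 0.185 for MDM2 and 0.226 for ZEB1. Upper quartile scaling gave 0.0096 for phase II enzymes, 0.0087 for TGF-beta genes, 0.0294 for YAP targets, 0.0494 for collagens and 0.0095 for ZEB1. With at least 10 counts in every library, YAP targets came to 0.0019 and integrins to -0.0716, and with the 6 libraries alone integrins came to -0.0824. Baituling library 1 alone gave -0.0202 for iron genes, 0.0190 for MAPK inhibitors and 0.0249 for collagens. Without each library in turn, medians ran from -0.0038 to 0.0783 for iron genes, from -0.1305 to 0.0023 for MAPK inhibitors and from -0.0619 to 0.0153 for collagens. With all libraries and TMM these medians lay between -0.268 and 0.0477, apart from integrins at 0.284. Library totals raise every value by about the shift of the all-gene median, and the cause of the other turns was not tested. For the genes named, 2443 values under the alternatives kept direction and side of the threshold, 20 fell short of it, 2 newly passed and 5 turned.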

Other observations

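The lists not described above moved little at their centre. Over all genes, 11.2% were called higher and 7.91% lower. Of 47 lysosome genes, 4 were higher and 2 lower by the call rule, with CTSS, a cathepsin, at -1.57 ± 0.09 and ATP6V1A, a proton pump subunit, at 1.10 ± 0.05. Of 36 proteasome genes, 3 were called lower and 0 higher. These were the immunoproteasome genes PSMB10, PSMB8 and PSMB9, which the MHC class I list also holds. Of 23 amino acid transporters, 4 were called higher and 2 lower, among them the taurine transporter SLC6A6, at 194, 193 and 193 CPM against 60.6, 68.2 and 65.8 CPM (1.58 ± 0.05). Of 20 aminoacyl-tRNA synthetases, VARS1 alone was called, lower at -1.05 ± 0.05.

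Signalling lists held calls in both directions or few calls, beside 11.2% of all genes called higher and 7.91% lower. Of 25 Wnt pathway genes, 4 were called lower and 0 higher. Of 19 Notch pathway genes, 4 were called higher and 3 lower, with the receptor NOTCH3 at 1.24 ± 0.14 and HES4, a target, at -1.18 ± 0.08. Of 35 TGF-beta, BMP and ID genes, 4 were called higher and 3 lower, near the shares over all genes. Of 19 YAP and TEAD genes 1 was called lower, and of 16 MAPK feedback inhibitors 0 were called in either direction, although 6 passed the edgeR test upward and 7 downward. Of 22 phase II conjugation genes, 2 were called higher and 3 lower. GSTM1 fell by 1.52 ± 0.10 and GSTM3 rose by 1.37 ± 0.05. Both belong to the GSTM family, whose members can share reads. GSTM5, with at most 3 counts in any library, lies on the strand opposite GSTM3. Of 9 LXR genes, MYLIP, which degrades the LDL receptor, rose by 1.66 ± 0.08 and SREBF1 fell by 1.07 ± 0.07.

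Genes often used to normalise PCR measurements differed between the groups. Besides ACTB and GAPDH, RPS13, a small subunit protein chosen here after its values were seen, was at 306, 305 and 313 CPM in CKI and at 494, 453 and 459 CPM in Baituling (-0.61 ± 0.05, adjusted p = 3.10e-10).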
